A study of Homo sapiens with 6 samples.

Results

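The C/EBP transcription factors and the glucocorticoid receptor with 5 of its classic target genes were compared between T98G and U87MG, a pair of long-established lines from human glioblastoma, with 3 Affymetrix arrays hybridised per line (6 in all). The members were all probe sets whose platform gene symbol is CEBPA, CEBPB, CEBPD, CEBPG, NR3C1, TSC22D3, FKBP5, KLF9, PER1 or SGK1. This gave 16 of the 22277 probe sets and 9 of the 11963 genes measured. Both probe sets that list PER1 also list the microRNA gene MIR6883. They are named for neither gene, so PER1 itself has no value here.

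Both lines were grown in DMEM with fetal bovine serum and antibiotics, and the labels name no drug, steroid or genetic change for any array. The labels call T98G sensitive to apoptosis from bortezomib, a proteasome inhibitor, and from G5, an isopeptidase inhibitor, and partly protected from G5-induced necrosis. U87MG is labelled with the opposite pattern, resistance to apoptosis and sensitivity to necrosis. Each line stands for 1 tumour, and whether the replicates came from separate cultures is not stated, so the p-values reflect nothing but array-to-array spread, which may be technical. In bulk RNA, fewer cells with a transcript and less transcript per cell cannot be told apart.

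C/EBP factors are basic leucine zipper proteins that bind DNA as dimers with each other and with related factors. They drive acute-phase, inflammatory and differentiation genes, and CEBPB and CEBPD are known in glioblastoma for their part in the mesenchymal expression state. The glucocorticoid receptor, encoded by NR3C1, is held ready by HSP90 chaperones, enters the nucleus when it binds cortisol or dexamethasone, and switches on genes such as TSC22D3, FKBP5, KLF9, PER1 and SGK1. Glucocorticoids are given widely to patients with glioblastoma to reduce swelling of the brain.

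Values are log2 levels per probe set, and differences are U87MG minus T98G, so that a difference of 1 is 2-fold. A gene with several probe sets is represented by the brightest, judged by the mean of the 6 arrays. It was called higher or lower when limma's adjusted p was under 0.05 and the difference was at least 2-fold. The lowest readings are judged against 4.03, the highest value of the bacterial TrpnX control probe sets, which match no human transcript. Pearson's r over probe sets, which are not independent, was 0.991 to 0.997 within a line and 0.934 to 0.938 between lines. The poly-A spike-in controls averaged 5.30 on U87MG replicate 3 and 6.10 to 6.84 elsewhere. Without this array the count of called members was again 3 of 9.

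CEBPD and KLF9 were lower in U87MG and SGK1 was higher, while the other 6 measured members were not called. The 3 called genes are 33.3% of the 9 members, against 13.6% of all genes. In U87MG 1 member was higher, against 6.56% of all genes, and 2 were lower, against 7.01%. An adjusted p under 0.05 without the 2-fold minimum was reached by 7 members, 2 of them with more and 5 with less signal in U87MG, against 41.3% of all genes in either direction. The arrays of the lines did not overlap for 7 of the 9 members, against 52.0% of all genes. The median difference of the members was -0.61, beside -0.01 over all genes. The members were chosen with earlier results of these data known, so these shares are a description and not a test.

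Taken probe set by probe set, 5 of the 16 were called, against 12.3% of all probe sets. SGK1 supplied the only higher one (5.93% of all probe sets), and the 4 lower ones belonged to CEBPD and KLF9 (6.33%). An adjusted p under 0.05 was reached by 12 of the 16 (37.6% of all probe sets), and the lines did not overlap in 12 (49.1%). Probe sets of 1 gene read the same RNA and are not independent replicates.

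**Figure D1:**
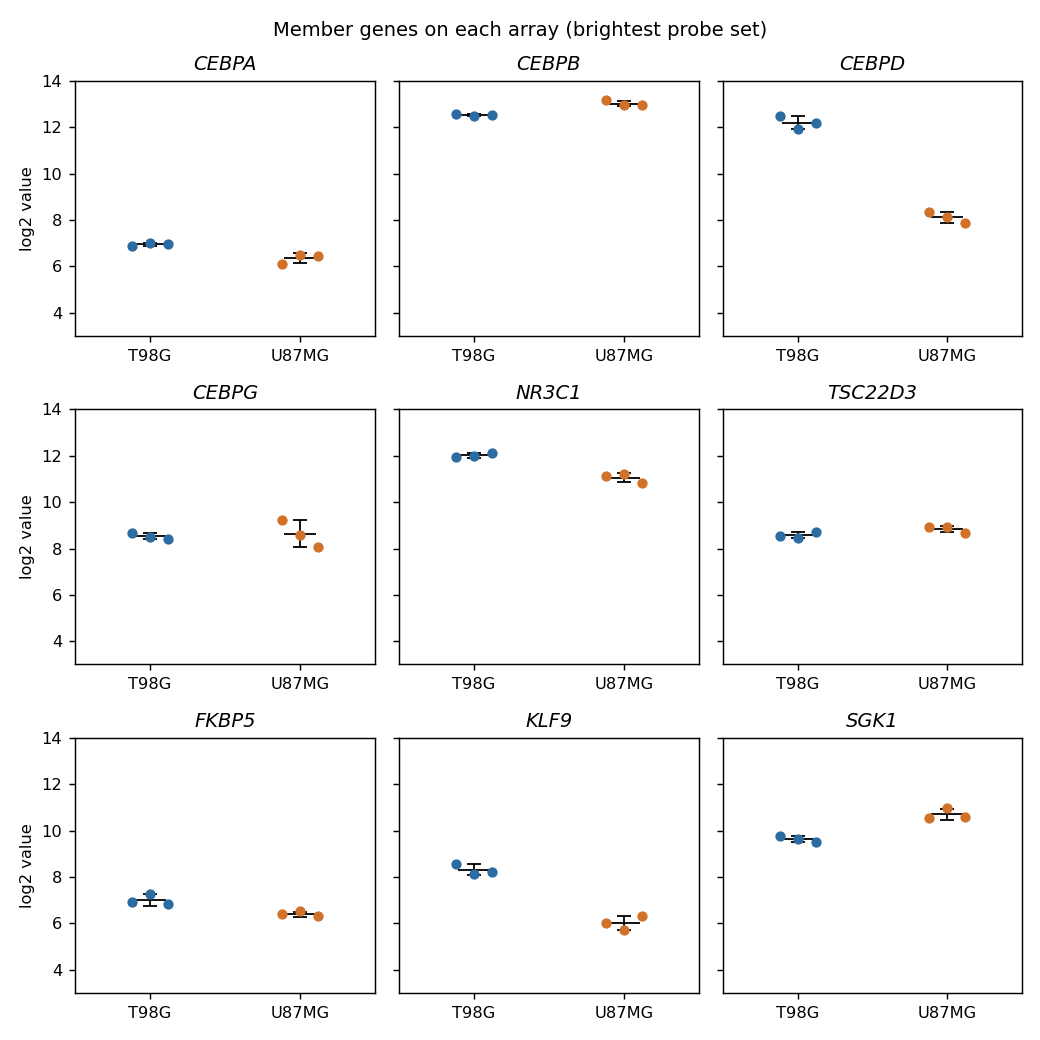
Log2 value of each measured member gene on its brightest probe set, with 1 panel per gene, 1 point per array (3 per line), and the mean and SD of each line in black. CEBPD, KLF9 and NR3C1 lie lower in U87MG, SGK1 and CEBPB lie higher, and CEBPG and TSC22D3 overlap between the lines.

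Among the C/EBP factors, CEBPD was called lower in U87MG and the other 3 were not called. CEBPD encodes C/EBP delta, an early-response factor induced by cytokines and glucocorticoids. Its brighter probe set (203973_s_at) read 12.49, 11.93 and 12.17 on the T98G arrays and 8.35, 8.11 and 7.88 on the U87MG arrays. Every T98G array was above every U87MG array, with a gap of 3.58 between the nearest values. The means were 12.20 ± 0.28 and 8.12 ± 0.23 (SD, n = 3 each), a 16.9-fold difference (log2 -4.08, SE 0.17, limma adjusted p = 6.17e-08). Of the 11963 genes, 69 were lower still in U87MG, and 1.01% had a larger difference in either direction.

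The second CEBPD probe set (213006_at) showed the same direction at a far lower signal. It read 6.87, 6.26 and 7.00 in T98G and 3.80, 3.53 and 3.92 in U87MG. All 3 U87MG arrays were under 4.03, so this probe set gives only a bound, at least 6.40-fold lower with such values set to 4.03. The measured difference was log2 -2.96 (SE 0.19, limma adjusted p = 4.05e-06 over all probe sets). The identifier of the brighter CEBPD probe set carries the suffix of probe sets that can match several transcripts. With such probe sets left out, CEBPD rests on 213006_at alone.

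CEBPB encodes C/EBP beta, the family member studied most as a regulator of the mesenchymal state in glioma. It read 12.58, 12.50 and 12.52 in T98G and 13.16, 12.96 and 12.96 in U87MG, a strong signal on every array. The lines did not overlap, and the difference ran opposite to that of CEBPD. At log2 0.50 (95% interval 0.27 to 0.72, limma adjusted p = 0.00319) it was 1.41-fold and was not called.

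CEBPA encodes C/EBP alpha, which promotes differentiation and cell cycle exit. It read 6.90, 7.03 and 6.98 in T98G and 6.10, 6.52 and 6.47 in U87MG, without overlap. The difference of log2 -0.61 (-0.89 to -0.32, limma adjusted p = 0.00365) stayed short of 2-fold.

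CEBPG encodes C/EBP gamma, which lacks a strong activation domain and pairs with other bZIP factors such as ATF4. It read 8.68, 8.51 and 8.42 in T98G and 9.25, 8.60 and 8.07 in U87MG. The U87MG arrays were spread on both sides of the T98G arrays, with an SD of 0.59 against 0.13. The difference of log2 0.11 had an interval of -0.45 to 0.66 (limma adjusted p = 0.786), which does not show equal levels. It was -0.20 without U87MG replicate 1 and 0.39 without U87MG replicate 3.

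**Figure D2:**
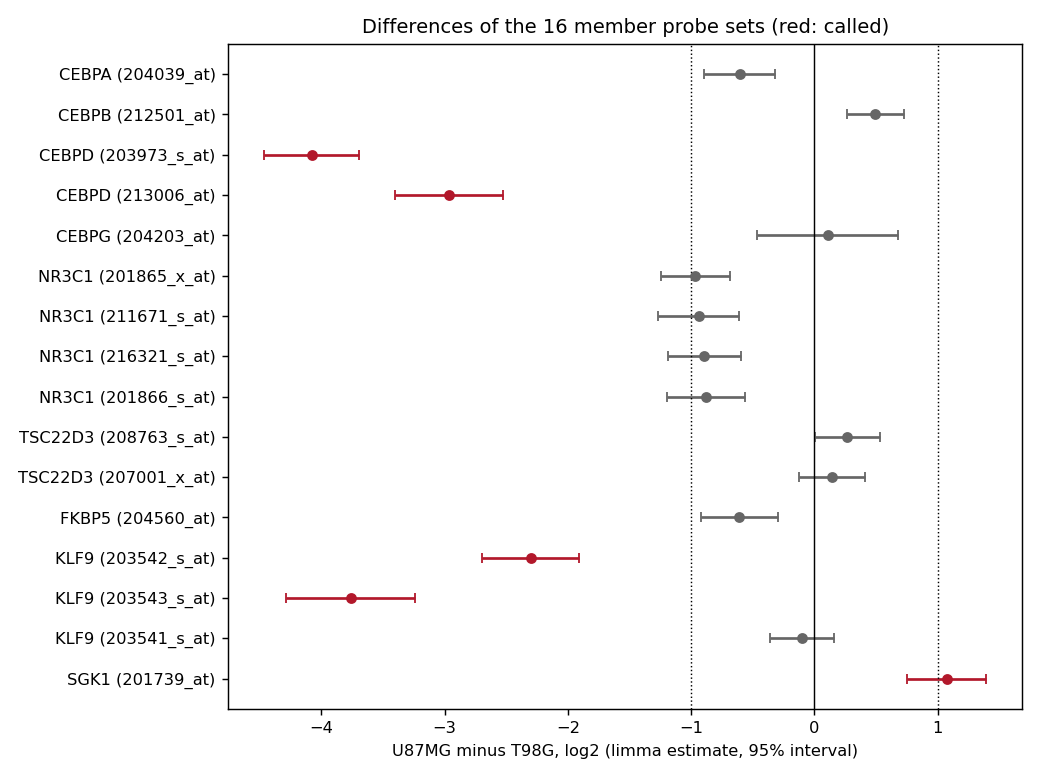
Difference between the lines (U87MG minus T98G, log2) for each of the 16 member probe sets, with 95% intervals from limma and dotted lines at the 2-fold minimum. The 5 called probe sets, in red, are both of CEBPD, 2 of the 3 of KLF9 and that of SGK1, while the 4 of NR3C1 lie together just inside the 2-fold line.

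The receptor gene NR3C1 gave less signal in U87MG on all 4 of its probe sets, by slightly less than 2-fold. The brightest (201865_x_at) read 11.94, 12.01 and 12.14 in T98G and 11.15, 11.20 and 10.84 in U87MG. The 3 arrays of each line stood apart, 0.74 separating the nearest values, and the lowest reading was that of U87MG replicate 3. The difference was log2 -0.97 (95% interval -1.24 to -0.69, SE 0.12, limma adjusted p = 0.000168), or 1.95-fold, and it was not called.

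The other 3 NR3C1 probe sets gave similar differences at other signal levels. The probe set 211671_s_at ran from 11.45 to 11.70 in T98G and from 10.33 to 10.82 in U87MG. On 216321_s_at the ranges were 11.10 to 11.16 and 9.95 to 10.42, and on 201866_s_at 10.01 to 10.28 and 9.01 to 9.47. The lines did not overlap on any of them, and the 4 differences lay between log2 -0.97 and -0.88, with adjusted p-values of 0.00029 to 0.001 over all probe sets. All 4 identifiers carry a suffix of probe sets that can match several transcripts, _x_at for the brightest and _s_at for the other 3. The brightest one passed 2-fold when T98G replicate 1 (log2 -1.01), U87MG replicate 1 (-1.01) or U87MG replicate 2 (-1.03) was left out, and had -0.85 without U87MG replicate 3.

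The receptor's measured target genes had calls in both directions. KLF9, a Krüppel-like zinc finger factor that binds GC-rich sites and is induced by glucocorticoids and thyroid hormone, was lower in U87MG. On its brightest probe set (203542_s_at) it read 8.57, 8.12 and 8.22 in T98G and 6.01, 5.70 and 6.30 in U87MG. The lines were separated by 1.82 at the nearest values. The means were 8.31 ± 0.23 and 6.00 ± 0.30 (SD, n = 3), a 4.93-fold difference (log2 -2.30, SE 0.17, limma adjusted p = 4.15e-06).

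The 3 KLF9 probe sets disagreed on the size of this difference. On 203543_s_at the values were 8.70, 8.14 and 8.37 in T98G and 5.03, 4.12 and 4.77 in U87MG, a 13.6-fold difference (log2 -3.76, SE 0.23). On 203541_s_at they were 5.96, 5.92 and 6.09 against 5.83, 5.78 and 6.07, which overlapped (log2 -0.10, 95% interval -0.36 to 0.16). Its call therefore differed from those of the other 2. All 3 identifiers carry the suffix of multiply matching probe sets, so KLF9 has no value once such probe sets are removed.

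**Figure D3:**
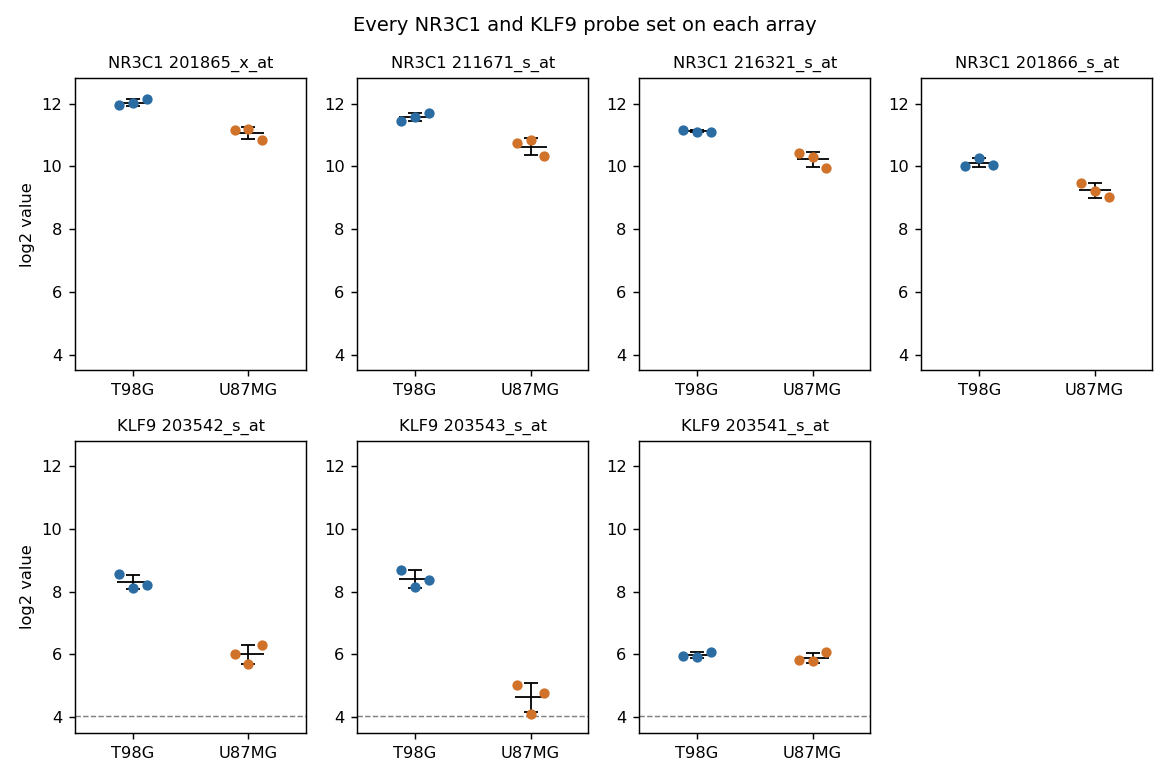
Log2 value on each array of the 4 NR3C1 probe sets (top) and the 3 KLF9 probe sets (bottom), with the mean and SD of each line in black and, for KLF9, a dashed line at 4.03. All NR3C1 panels show U87MG lower by a like amount, whereas the KLF9 panels range from a wide gap to overlap.

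SGK1, a serum- and glucocorticoid-induced kinase that governs sodium transport and cell survival, was higher in U87MG. Its single probe set read 9.76, 9.63 and 9.49 in T98G and 10.54, 10.99 and 10.58 in U87MG. The lines did not overlap, and U87MG replicate 2 was the highest array. The means were 9.63 ± 0.13 and 10.70 ± 0.25 (SD, n = 3), a 2.11-fold difference (log2 1.07, SE 0.14, limma adjusted p = 0.000191). Without U87MG replicate 2 it was log2 0.93 and fell short of the 2-fold minimum.

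FKBP5 encodes FKBP51, a co-chaperone that lowers the receptor's affinity for hormone and so closes a feedback loop. It read 6.93, 7.28 and 6.82 in T98G and 6.38, 6.52 and 6.31 in U87MG. The arrays did not overlap, but the nearest values were only 0.30 apart. The difference of log2 -0.61 (-0.91 to -0.30, limma adjusted p = 0.00503) was 1.52-fold and not called.

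TSC22D3 encodes GILZ, a leucine zipper protein that carries part of the anti-inflammatory action of glucocorticoids. Its brighter probe set read 8.53, 8.47 and 8.72 in T98G and 8.92, 8.93 and 8.68 in U87MG, where replicate 3 fell within the T98G range. The difference was log2 0.27 (0.01 to 0.53, limma adjusted p = 0.0944). The other probe set read 6.37, 6.50 and 6.57 against 6.80, 6.59 and 6.47, also overlapping, with log2 0.14 (-0.13 to 0.41). Both identifiers (208763_s_at and 207001_x_at) carry a suffix of multiply matching probe sets.

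The 2 probe sets that list PER1, a repressor of the circadian clock, together with MIR6883 also overlapped between the lines. One (202861_at) read 7.64, 8.29 and 8.04 in T98G and 7.54, 7.77 and 7.64 in U87MG (log2 -0.34, 95% interval -0.71 to 0.03). The other (36829_at) read 8.18, 8.28 and 8.12 against 7.97, 8.25 and 8.42 (log2 0.02, -0.27 to 0.31).

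The regions upstream of the called targets KLF9 and SGK1 are shown because these genes differed in opposite directions between the lines. Each is the 250 bases before a RefSeq gene start in GRCh38.p14, on the minus strand and written 5′ to 3′. KLF9 lies at chr9:70414658-70414907 and SGK1, at the most downstream of its 3 listed starts, at chr6:134174867-134175116. Capitals mark CCAAT boxes (CCAAT or its reverse complement ATTGG) and GC boxes (GGGCGG or CCGCCC).
KLF9: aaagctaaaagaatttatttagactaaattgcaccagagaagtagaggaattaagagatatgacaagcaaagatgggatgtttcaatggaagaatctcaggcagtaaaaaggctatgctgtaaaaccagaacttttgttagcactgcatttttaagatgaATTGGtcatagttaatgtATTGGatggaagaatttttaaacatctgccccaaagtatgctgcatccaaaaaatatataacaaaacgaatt
SGK1: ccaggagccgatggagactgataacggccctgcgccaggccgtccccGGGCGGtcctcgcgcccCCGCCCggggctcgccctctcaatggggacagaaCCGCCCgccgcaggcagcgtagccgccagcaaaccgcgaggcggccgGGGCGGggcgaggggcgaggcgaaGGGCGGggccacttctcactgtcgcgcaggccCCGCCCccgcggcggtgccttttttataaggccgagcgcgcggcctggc

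The KLF9 window held 2 CCAAT boxes and 0 GC boxes at 32.4% G and C, and the SGK1 window held 0 CCAAT boxes and 6 GC boxes at 76.0%. Over 35116 windows of this length, the median was 58.0% G and C, 42.6% held a GC box and 32.0% a CCAAT box. RefSeq windows matched 9 of the 10 members, with 23 windows in all since several genes have more than 1 start. CEBPD had no window, so these counts do not cover it. A GC box was in 15 of the 23, from 8 members that include uncalled ones. A CCAAT box was in 8 of the 23, from 6 members, most of them uncalled. The receptor palindrome core ACANNNTGT was in 1 of the 23, at TSC22D3, against 4.61% of all windows. The receptor hexamer TGTTCT (or AGAACA) was in 0 of the 23, against 12.4% of all windows. The C/EBP pattern TTGCNNAA (or TTNNGCAA) was in 3, of NR3C1, PER1 and SGK1, against 9.05%. The SGK1 match belonged to another of its starts, since the SGK1 window printed above held 0. The motifs were searched on both strands. A match is a string of letters and not a bound site, and which start these cells use was not measured.

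Around the members, 160 further genes of C/EBP and glucocorticoid biology were listed by role, and 142 were measured. The lists were written with earlier results of these data known, so a share above that of all genes is no independent test. Of these 16 were higher and 14 lower in U87MG, or 21.1%, with a median difference of 0.04. Over all genes 13.6% were called, 6.56% higher and 7.01% lower, with a median of -0.01, and the counts of each list stand beside these shares. Median and mean differed in sign for C/EBP targets (-0.06 and 0.04), mesenchymal regulators (0.02 and -0.06), chaperones and cofactors (0.03 and -0.18), steroid receptors and metabolism (0.05 and -0.08) and other receptor targets (0.12 and -0.25).

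Relatives, partners and regulators of C/EBP factors had 0 called genes of 13. Limma gave 9 of them an unadjusted p under 0.05, against 5719 of the 11963 genes, and 7 an adjusted p under 0.05, against 41.3% of all genes. DDIT3, which encodes the stress factor CHOP, a C/EBP that dimerises with the others, had log2 0.73 (SE 0.14). TRIB1, a scaffold that sends C/EBP alpha to degradation, had -0.76 (SE 0.13).

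C/EBP target genes went both ways, 4 higher and 3 lower of 23 (30.4%, against 13.6% of all genes). CCL2, a chemokine for monocytes, was 12.5-fold lower in U87MG (6.82 ± 0.07 against 10.47 ± 0.31). S100A8, a calcium-binding alarmin, was 3.40-fold lower on 1 of 2 probe sets, with log2 -0.16 on the other, and the mean of both (-0.96) was not called. PTGS2, the inducible cyclooxygenase, was at least 5.98-fold higher, since T98G replicate 2 read under 4.03. CSF3, the granulocyte growth factor G-CSF, was 5.47-fold higher (9.86 ± 0.68 against 7.41 ± 0.19). The other called genes, looked up after the values were seen, were CXCL8 and PPARG, higher at log2 2.44 and 2.04, and IL6, lower at -1.50.

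Among 5 measured regulators of the mesenchymal glioma state, 0 were higher and 1 was lower. Without the 2-fold minimum, limma's adjusted p was under 0.05 for 4, against 41.3% of all genes. FOSL2 and BHLHE40 (log2 0.53) were the 2 higher, STAT3 and ZBTB18 (-0.78) the 2 lower. The list does not part activators of the state from repressors, so these counts give the direction of signal only. FOSL2 fell just short of a call in the higher direction, at log2 0.99, and the weakest of its 3 probe sets gave 0.70. STAT3, the cytokine-activated factor that acts beside C/EBP beta, read 11.28, 11.17 and 11.45 in T98G and 10.36, 10.27 and 10.17 in U87MG. The 2.04-fold difference (log2 -1.03, SE 0.11, limma adjusted p = 5.6e-05) fell below 2-fold without T98G replicate 3 (-0.95), without U87MG replicate 3 (-0.98) and when quantile normalization was repeated (-0.99). Its second probe set, at log2 -0.83, was not called, nor was the mean of both (-0.93).

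Of 16 chaperones and cofactors of the receptor, 0 were higher and 2 lower. CREBBP, an acetyltransferase recruited as a coactivator, was 2.73-fold lower by its brighter probe set, whereas the dimmer one gave log2 -0.37 and the mean of both, at -0.91, was not called. NCOA2, the coactivator GRIP1, was 2.13-fold lower, called on 2 of its 4 probe sets. It was not called without U87MG replicate 3 (-0.98) or by the mean of its probe sets (-0.79). The HSP90 genes HSP90AA1 and HSP90AB1 had log2 0.24 and 0.02 and were not called.

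Of 7 genes of steroid receptors and glucocorticoid metabolism, 1 was higher and 1 lower. NR3C2, the mineralocorticoid receptor, which also binds cortisol, was higher from a dim signal (5.26 ± 0.40 in U87MG against 4.21 ± 0.06), and was not called without U87MG replicate 1 (log2 0.83) or by limma's treat against 1.5-fold. SRD5A1, a reductase that acts on steroids, was 2.48-fold lower and was called on all 3 of its probe sets. HSD11B1, which regenerates cortisol from cortisone, had log2 -0.99 and was not called.

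Other receptor target genes split too, 2 higher and 6 lower of 26 (30.8%, against 13.6% of all genes). Without the 2-fold minimum, 15 had a limma adjusted p under 0.05, 8 higher and 7 lower, against 41.3% of all genes. DUSP1, a phosphatase that silences MAP kinases, was 4.25-fold higher, and MAOA, which breaks down monoamines, 3.63-fold higher on the brightest of 3 probe sets that were all called. CRISPLD2, a secreted protein gene, was lower by 29.9-fold, reading 10.69, 11.08 and 10.91 in T98G and 5.87, 6.13 and 5.95 in U87MG, far apart. RHOB, a small GTPase, was 3.94-fold lower. GLUL, IRS2, CDKN1C and ELL2 made up the other 4 lower genes, at log2 -1.24 to -1.75. Probe sets of CDKN1C reached -0.03, with 3 of 5 called, and those of ELL2 -0.42, with 1 of 2 called. ZBTB16 and PDK4, both strongly hormone-induced in many tissues, had log2 0.11 and -0.13. Their signals were dim, with means of 4.66 in T98G and 4.77 in U87MG for ZBTB16, and 4.85 and 4.71 for PDK4. At signals not far above the control probe sets, such small differences do not show equal levels.

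Clock genes, the circuit to which PER1 belongs, had 5 higher and 0 lower of 15, or 33.3%. Over all genes 13.6% were called and 6.56% were higher. The median was 0.44, beside -0.01 over all genes. Without the 2-fold minimum, limma's adjusted p was under 0.05 for 9, 7 higher and 2 lower, against 41.3% of all genes. RORA, a nuclear receptor that activates BMAL1, read 3.91, 3.95 and 4.30 in T98G and 7.26, 6.65 and 6.61 in U87MG. With the 2 T98G arrays under 4.03 set to that value, it was at least 6.58-fold higher. NPAS2, a partner of BMAL1, was 4.43-fold higher and was called on 4 of 5 probe sets. The other 3, looked up after the values were seen, were BHLHE41, PER3 and CLOCK, at log2 2.02, 1.44 and 1.06, with -0.05 on the other CLOCK probe set. DBP, an output gene of the clock, had -0.76 on the brighter of 2 probe sets and 0.13 on the other, and was not called.

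Among 25 paralogs of the receptor target members, 3 were higher and 1 lower. KLF2, a factor of endothelial quiescence, was 3.29-fold higher in U87MG (9.07 ± 0.05 against 7.35 ± 0.08), and KLF6, an injury-response factor, 2.24-fold higher by the brightest of 3 probe sets, the weakest, which alone is left without multiply matching probe sets, giving log2 0.10 and the mean of all 3, at 0.83, not being called. KLF7 was the other higher gene, at log2 1.13. FKBP11, an endoplasmic reticulum prolyl isomerase, was 3.30-fold lower, and both of its probe sets were called, at log2 -1.72 and -1.78. Of 12 activators and substrates of SGK1, 1 was higher, MAPKAP1, a subunit of the mTORC2 complex that phosphorylates SGK1, at 2.21-fold. NDRG1, a substrate of SGK1, had log2 -0.98 and was not called.

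**Figure D4:**
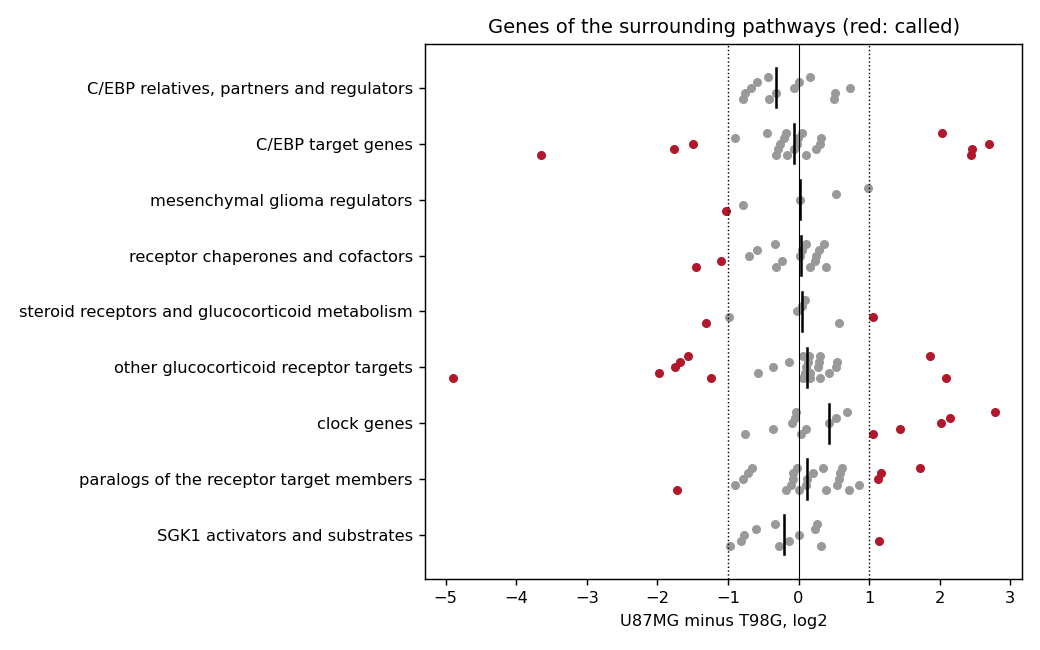
Difference between the lines (U87MG minus T98G, log2) of the 142 measured pathway genes, 1 point per gene and 1 row per list, with the list median as a black bar, called genes in red and dotted lines at the 2-fold minimum. Calls lie on both sides in 4 of the 9 lists, all 5 calls among the 15 clock genes are on the higher side, and the 13 C/EBP relatives have none.

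The genes most like the 3 called members were taken as those with the smallest mean absolute difference of log2 values over the 6 arrays, each gene centred on its own mean. For CEBPD these were HOXC10, FNBP1L and CLEC2B, at 0.10 to 0.11. For KLF9 they were HOXC13 (0.07), FOXA1 (0.11) and IL4R (0.13), and for SGK1 FAM184A (0.05), SLC35G2 (0.07) and BNC2 (0.07). With 2 lines, this measure mostly finds genes with a like difference between the lines.

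Markers of cell type set the lines beside their label of glioblastoma. VIM, which encodes the filament vimentin, read 14.59 ± 0.05 in T98G and 14.85 ± 0.05 in U87MG. The astrocyte markers S100B (4.13 and 4.23) and AQP4 (4.50 and 4.60) were near the 4.03 of the control probe sets in both lines. Others of that list read higher, GFAP at 6.42 and 6.52, SLC1A2 at 6.78 and 6.68 and ALDH1L1 at 7.17 and 7.26. Of the 10 astroglial and glioma markers, 2 were higher in U87MG (NES and SLC1A3) and 1 lower (SOX9). The 5 measured neuronal markers averaged 6.25 to 6.54 over the T98G arrays and 7.56 to 7.67 over the U87MG arrays. GAD1 (log2 3.71) and SNAP25 (1.60) were higher in U87MG. SYT1 (0.99975), SLC17A7 (0.11) and STMN2 (-0.25) were not called, so the averages do not stand for the whole list. Averages of the 6 leukocyte markers were 5.93 to 5.99 and 6.04 to 6.20, with CSF1R higher in U87MG. The 5 endothelial markers averaged 5.38 to 5.55 and 5.35 to 5.60. CDH5 was the lowest of them, at 4.03 and 3.95. The others ran from PECAM1 (5.01 and 5.08) up to TEK (6.40 and 6.36). The 5 measured oligodendrocyte markers averaged 6.73 to 6.77 and 6.57 to 6.70. The part of these differences in the members' values was not tested.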

How the data were processed

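Per the labels' protocols, biotin labelling of total RNA used 1 cycle of amplification. The deposited values are log2 signals, 1 per probe set and array (2.90 to 14.9). Per the submitters' processing notes the tools were RMA and limma. Not given in the sources used here are their versions and settings. Quantile normalization within RMA equalises intensity distributions, so a difference in total RNA between lines can be hidden and differences of dim transcripts compressed.

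Of 22277 probe sets, 62 were controls, 19064 listed 1 gene, 1043 several and 2108 none, by the platform annotation of 2016. Current symbols came from the RefSeq table of GRCh38.p14 by Entrez identifier (19052 matched).

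The lines were compared in R 4.3.3 by limma 3.58.1, using lmFit and then eBayes with 4 residual degrees of freedom. Its two-sided p-values were adjusted by Benjamini-Hochberg over 11963 genes or 22215 probe sets. The number of arrays limits the precision (median residual SD 0.146). On simulated data with 11963 genes, a log2 shift of 1.5 was recovered in 97 of 100 genes and a shift of 3 in 100 of 100. There were 0 false calls. The noise was independent and normal, with each gene's residual SD within the lines, and held no difference between cultures. Unshifted genes could hardly reach 2-fold with it, so this checks the fit and not the calls in the data. Alternatives were other thresholds, normalizations, variance models and probe set choices, the replicate number as a block, and each array left out. Members and lists were chosen with earlier results of these data known. Besides the members, up to 2 called genes per direction and list were named or, with none called, the 2 with the smallest p. Other names were added after seeing values.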

Additional observations from a re-analysis of the deposited data

How the results depend on the processing

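Called members numbered 3 of 9 genes and 5 of 16 probe sets, called pathway genes 30 of 142, and called genes 1624 of 11963. Without the 2-fold minimum these counts were 7, 12, 73 and 4942. Without multiply matching probe sets, which leaves 6 member genes, 6 member probe sets and 94 pathway genes, they were 2, 2 and 19 for members, their probe sets and pathway genes, beside 1098 of 8369 genes (13.1%). Leaving out each array in turn gave 3 to 4 member genes, 5 to 6 member probe sets, 29 to 33 pathway genes and 1609 to 1653 genes. CEBPD and KLF9 kept their direction and call in every alternative that gave them a value. CEBPD ran from log2 -4.21 to -2.96. KLF9 ran from -2.45 to -2.05. NR3C1 was called by limma's treat against 1.5-fold in the gene fit (adjusted p = 0.0459). In the probe set fit treat called none of its probe sets, with adjusted p-values of 0.0578 for the brightest and 0.137 to 0.224 for the rest. The filter on dim probe sets left CEBPA and FKBP5 without a value. The replicate block gave 3 member genes, 5 member probe sets, 30 pathway genes and 1626 genes. Same-numbered arrays of the lines had deviations correlated at 0.15, 0.08 and 0.08, each of the 6 arrays correlating best with its own number, a hint from the data and not from the design. Signal near the control probe sets limits the second CEBPD probe set, PTGS2 and RORA to bounds.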
